A study of Mus musculus with 8 samples.

Results

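The Id2-GFP- pre-CD8 cells of mouse bone marrow were compared with 3 other populations of dendritic cell progenitors: Id2-GFP- CDP, Id2-GFP+ CDP and Id2-GFP+ pre-CD8. CDP abbreviates common dendritic cell progenitor; pre-CD8 is a progenitor stage whose sort gates the labels do not define. Each population had 2 arrays, so 2 of the 8 arrays held the cells of interest. The titles and sources place every sample in an Id2-IRES-GFP reporter mouse, in which green fluorescence follows transcription of the Id2 locus. The genotype field names heterozygous mice of that reporter for both Id2-GFP- CDP samples only, and heterozygous Zbtb46-GFP mice for the other 6, including both Id2-GFP- pre-CD8 samples. Groups were taken from the titles, so the comparison with Id2-GFP- CDP also sets samples with different genotype fields against each other. The labels give no age, sex, number of animals or pooling, and nothing in them ties replicates to separate mice, so each p-value reflects spread between arrays alone, possibly technical.

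Members were the genes for which both Id2-GFP- pre-CD8 arrays lay above, or below, all 6 other arrays, out of 19938 genes. For each such gene the gap to the nearest population is the smallest of its 3 differences of means, in log2 intensity. The higher set and the lower set held genes that met that rank rule and also passed a limma fit. The fit compared Id2-GFP- pre-CD8 with the mean of the other 3 populations, at an adjusted p of 0.05 with Benjamini-Hochberg adjustment over all genes. A call, for a single gene or in a list count, refers to the limma threshold alone. A called gene could thus overlap other arrays. The genes named were those with the largest gaps, members of lists of cell types and pathways, and a set of regulators.

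Dendritic cells arise in the marrow from progenitors that depend on the receptor Flt3, and divide into plasmacytoid cells (pDC), which release type I interferon, and conventional cells of type 1 (cDC1) and type 2 (cDC2), which present antigen. Id2 is an inhibitor that binds E proteins, helix-loop-helix factors that recognise the E-box, and keeps them from DNA. E proteins are known for driving lymphoid genes and, through Tcf4, the pDC programme, while cDC1 cells need Id2, Irf8 and Batf3.

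Median log2 intensity was 6.12 to 6.27 on the 8 arrays. Across genes, r between replicates was 0.984 to 0.989, and equally numbered arrays of Id2-GFP+ CDP and Id2-GFP+ pre-CD8 correlated more closely than any replicate pair (0.992 and 0.990). Mean linear intensity divided the arrays into a brighter set, at 461 to 478, and a dimmer set, at 402 to 414, with 1 array of each population in each set. Replicate 1 of Id2-GFP- pre-CD8 belonged to the brighter set and replicate 2 to the dimmer. The spread also differed by set, with a log2 interquartile range of 3.65 to 3.73 in the brighter and 3.15 to 3.41 in the dimmer. For each list, limma counts with the set as a block (the set block) are given beside the main ones. Further fits each left out 1 array, with no set block, so 1 population then had arrays of 1 set only. Mki67, Tcf4, Flt3, Meis1 and Irf8 lost their calls in some of those fits. With the set block and all arrays, their limma adjusted p was 1.6e-06, 0.000409, 1.43e-06, 2.19e-06 and 0.000159. The sets were drawn from the intensities of these same arrays and are not in the labels. Values with the set block therefore do not restore a lost call. A list's median difference had the same sign in both sets, except for the T, NK and ILC, erythroid, basophil and cytokine receptor lists.

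Id2 itself was at 5.90 and 7.18 log2 intensity on the Id2-GFP- pre-CD8 arrays, 5.14 and 6.30 in Id2-GFP- CDP, 9.77 and 9.26 in Id2-GFP+ CDP, and 10.69 and 11.00 in Id2-GFP+ pre-CD8. Both Id2-GFP- populations were thus low and overlapped each other, and both Id2-GFP+ populations were high, in accord with the titles. Sorting on this reporter set the direction against a mean that includes both Id2-GFP+ populations. Against Id2-GFP- CDP alone the difference in Id2 was 0.82 ± 0.48 (SE, limma adjusted p = 0.865). Against the mean of the other 3 populations Id2 was lower by a difference of -2.15 ± 0.40 (SE; limma adjusted p = 0.0156), a call lost without Id2-GFP- pre-CD8 replicate 1 (adjusted p = 0.142) and with the other 6 arrays as 1 group (0.641). Zbtb46, a transcription factor of conventional dendritic cells and the locus of the other reporter, read 5.50 and 6.12 in Id2-GFP- pre-CD8, against 5.48 and 6.13 in Id2-GFP- CDP, 7.08 and 6.96 in Id2-GFP+ CDP, and 7.68 and 8.04 in Id2-GFP+ pre-CD8. The Id2-GFP- populations overlapped for this gene too, and its call against the mean of the others (limma adjusted p = 0.0298) was lost in 5 of the 8 fits that left out 1 array, with adjusted p up to 0.31, and with the other 6 arrays as 1 group (0.483).

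Both Id2-GFP- pre-CD8 arrays lay above all 6 others for 1638 genes (8.22% of those tested) and below all 6 for 1614 (8.1%). The same rank rule, applied to each of the other populations, gave 488 above and 520 below for Id2-GFP- CDP, 423 and 243 for Id2-GFP+ CDP, and 831 and 681 for Id2-GFP+ pre-CD8. The Id2-GFP- pre-CD8 population thus had the highest counts of the 4 in both directions. The contrast was sharper for wide gaps: the nearer Id2-GFP- pre-CD8 array stood over log2 1 beyond every other array for 127 genes above and 79 below, while Id2-GFP+ pre-CD8 had 25 and 5, Id2-GFP+ CDP 4 and 0, and Id2-GFP- CDP 0 and 9. These counts are ranks with no test between populations.

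**Figure D1:**
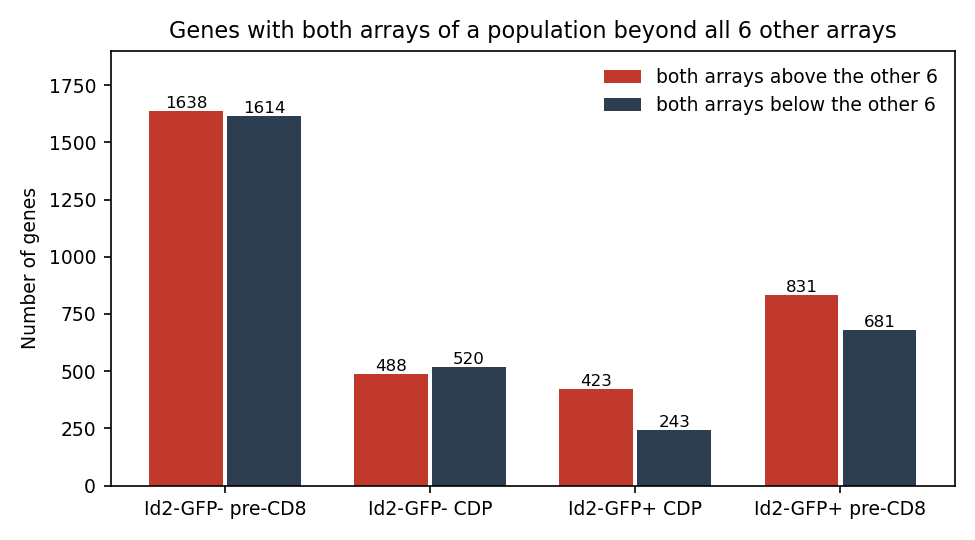
Bars give the number of genes, of 19938, for which both arrays of a population lay above (red) or below (dark) all 6 arrays of the other populations. The Id2-GFP- pre-CD8 bars reach 1638 and 1614, and the next highest are 831 and 681 in Id2-GFP+ pre-CD8.

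By limma against the mean of the other 3 populations, 583 genes (2.92%) were higher and 668 (3.35%) lower. Of these, 569 (2.85% of genes tested) and 555 (2.78%) also met the rank rule and form the higher set and the lower set. With the array set as a block, limma called 2472 higher and 2207 lower of the 19938 genes. List counts below are to be read beside these shares, and beside the 8.22% of genes above and 8.1% below all 6 others. The lists were written with earlier results of these data known, so a count beyond these shares is no independent evidence. Leaving out Id2-GFP- pre-CD8 replicate 1 reduced the genes meeting both criteria to 221 higher and 289 lower, and leaving out replicate 2 to 259 and 178. In a bulk sample, a lower reading from fewer cells of a type and from less RNA per cell cannot be told apart. The same holds for a higher reading, from more cells of a type or more RNA per cell.

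The population nearest to Id2-GFP- pre-CD8 was most often Id2-GFP- CDP. It was nearest for 349 of the 569 higher genes (61.3%) and 459 of the 555 lower genes (82.7%). Id2-GFP+ pre-CD8 was nearest for 171 and 79 genes, and Id2-GFP+ CDP for 49 and 17. The median gap to the nearest population was 0.88 for higher and 0.84 for lower genes, and it exceeded log2 1 for 233 and 205 genes and log2 2 for 43 and 13. Against the nearest population taken alone, 174 higher genes (30.6%) and 93 lower genes (16.8%) passed the threshold. Over all genes the 3 pairwise limma comparisons, which share the Id2-GFP- pre-CD8 arrays, called 206 higher (1.03%) and 118 lower (0.592%) where Id2-GFP- CDP was the reference, 415 (2.08%) and 560 (2.81%) for Id2-GFP+ CDP, and 538 (2.7%) and 711 (3.57%) for Id2-GFP+ pre-CD8. At the edge of the rank rule, Ern1 was just inside, with its lower Id2-GFP- pre-CD8 array at 10.38 and the highest other array at 10.36, and Rnf122 likewise with 9.61 and 9.58. Just outside lay Zfp760 and Gbp5, short of the highest other array by gaps of -0.00044 and -0.00176. On the low side, C5ar1 and Pik3r5 lay just inside by 0.01, and Cacna1e and Lilrb4a just outside.

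The 3 named genes with the largest gaps above the nearest population, Rag1, Dntt and Il7r, are genes of early lymphoid cells. Myl10 and Cmah came next, with gaps of 3.58 and 3.37, ahead of the lymphoid gene Rag2. Rag1 and Rag2 encode the recombinase that joins antigen receptor gene segments, Dntt encodes the enzyme that adds untemplated bases at those joints, and Il7r the receptor for a lymphoid growth factor. Rag1 was at 8.58 and 9.50 in Id2-GFP- pre-CD8, against 5.16 and 4.76 in Id2-GFP- CDP, 5.16 and 5.08 in Id2-GFP+ CDP, and 4.84 and 5.42 in Id2-GFP+ pre-CD8. Both arrays stood apart from the other 6, which were low and close together. The difference from the mean of the others was 3.97 ± 0.26 (SE; limma adjusted p = 0.000306), and the gap to the nearest population, Id2-GFP+ pre-CD8, was 3.91 (adjusted p = 0.000711). Dntt read 11.86 and 12.07, against 7.83 and 8.37 in Id2-GFP- CDP, 6.38 and 7.77 in Id2-GFP+ CDP, and 7.28 and 8.17 in Id2-GFP+ pre-CD8. It was the highest of the named lymphoid differences, at 4.33 ± 0.38 (SE; limma adjusted p = 0.000902) or 20.1-fold. Il7r read 10.14 and 10.52, against 6.77 and 6.62, 5.72 and 6.41, and 6.35 and 6.49 in the same order of populations. No other array came within 3.38 of the lower Id2-GFP- pre-CD8 value, and the difference was 3.94 ± 0.22 (SE; limma adjusted p = 0.000174). Rag2 was at 7.70 and 7.61 in Id2-GFP- pre-CD8 and between 4.53 and 4.97 on the other 6 arrays. Its gap of 2.70 to the nearest population, Id2-GFP+ CDP, passed the threshold (limma adjusted p = 0.000201).

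The promoters of the 3 genes with the largest gaps are shown because the populations were sorted on an inhibitor of E-box binding factors. Each run is the 250 bases before the transcription start, 5′ to 3′ on the gene's strand, from RefSeq on GRCm38.p6. Capitals mark the E-box form CANNTG, which reads the same on both strands. Rag1 lies at chr2:101649533-101649782 on the minus strand, Dntt at chr19:41029025-41029274 on the plus strand, and Il7r at chr15:9529877-9530126 on the minus strand.
Rag1: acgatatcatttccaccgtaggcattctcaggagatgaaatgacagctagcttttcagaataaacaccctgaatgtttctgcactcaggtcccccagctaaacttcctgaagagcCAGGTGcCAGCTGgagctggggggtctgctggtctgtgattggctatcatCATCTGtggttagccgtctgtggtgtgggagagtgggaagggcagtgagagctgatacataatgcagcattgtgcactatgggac
Dntt: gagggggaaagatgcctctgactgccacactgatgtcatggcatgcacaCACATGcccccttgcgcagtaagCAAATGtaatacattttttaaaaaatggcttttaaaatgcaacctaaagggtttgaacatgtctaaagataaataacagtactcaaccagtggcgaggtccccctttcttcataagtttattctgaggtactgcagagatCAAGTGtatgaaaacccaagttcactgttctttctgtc
Il7r: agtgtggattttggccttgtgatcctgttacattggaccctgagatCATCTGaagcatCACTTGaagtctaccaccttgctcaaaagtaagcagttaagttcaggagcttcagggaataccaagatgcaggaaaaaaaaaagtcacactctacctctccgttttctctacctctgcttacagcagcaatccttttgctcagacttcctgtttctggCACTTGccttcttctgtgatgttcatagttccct
Each of the 3 windows holds 3 matches, and that of Rag1 includes 1 CAGGTG and 1 CAGCTG, narrower forms of CANNTG. The RefSeq promoters covered 440 of the 569 higher genes, with 602 promoters, and 64.5% of these held CANNTG, beside 60.2% of 532 promoters of 448 lower genes and 62.1% of 19115 promoters of all genes. CAGCTG was in 14.1%, 13% and 12.7% of them, and CAGGTG in 19.4%, 12.2% and 16.9%. These shares describe letters in a window and show no binding.

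Among 21 measured genes of the early lymphoid and B lineage, 13 lay above all 6 arrays and none below, against 8.22% and 8.1% of all genes. By limma 11 were higher and 2 lower, and the list's median difference was 0.93, where that of all genes was near 0. With the array set as a block 14 were higher and 2 lower, and with the other 6 arrays as 1 group 10 and 0. Ebf1, a factor that starts the B cell programme, read 7.44 and 8.06 in Id2-GFP- pre-CD8, against 4.90 and 4.25 in Id2-GFP- CDP, 4.26 and 5.07 in Id2-GFP+ CDP, and 4.85 and 4.71 in Id2-GFP+ pre-CD8. The other 3 populations overlapped, and the difference was 3.08 ± 0.27 (SE; limma adjusted p = 0.000902). Blnk, an adaptor that carries the B cell receptor signal, read 9.58 and 10.37, with Id2-GFP- CDP next at 6.85 and 7.52 and the other 4 arrays between 5.78 and 6.41. Lax1, an adaptor of lymphocyte membranes, read 10.38 and 9.96, with Id2-GFP+ pre-CD8 next at 6.93 and 7.18 and the 4 CDP arrays between 5.44 and 5.93. Thus Blnk was nearest in the population that shares the reporter state, and Lax1 in the population that shares the stage. Cd72, Bank1, Blk and Vpreb1 rose by 2.30, 1.92, 1.32 and 0.93. Vpreb1 lay above the other arrays by only 0.09, and its difference from Id2-GFP- CDP was 0.44 (limma adjusted p = 0.77).

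Other members of the list did not all rise. Cd79a, which encodes a chain of the B cell receptor, was at 5.49 and 5.11 in Id2-GFP- pre-CD8 and between 4.33 and 5.19 on the other arrays, overlapping them. Cd79b, Ms4a1, Pou2af1, Vpreb3 and Foxo1 likewise did not lie beyond the others, with differences between -0.15 and 0.33. Pax5, the factor that fixes B cell identity, and Igll1 lay above all 6 arrays with differences of 0.76 and 0.52 but missed the limma threshold. Cd22, an inhibitory receptor of B cells, was at 5.91 and 6.98, with 6.49 and 8.28 in Id2-GFP- CDP and 9.38 to 10.80 in both Id2-GFP+ populations, and fell by 2.82 against the mean of the others while overlapping Id2-GFP- CDP. Fcrla fell by 1.26. Without Id2-GFP- pre-CD8 replicate 1, only 1 list member was called lower.

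**Figure D2:**
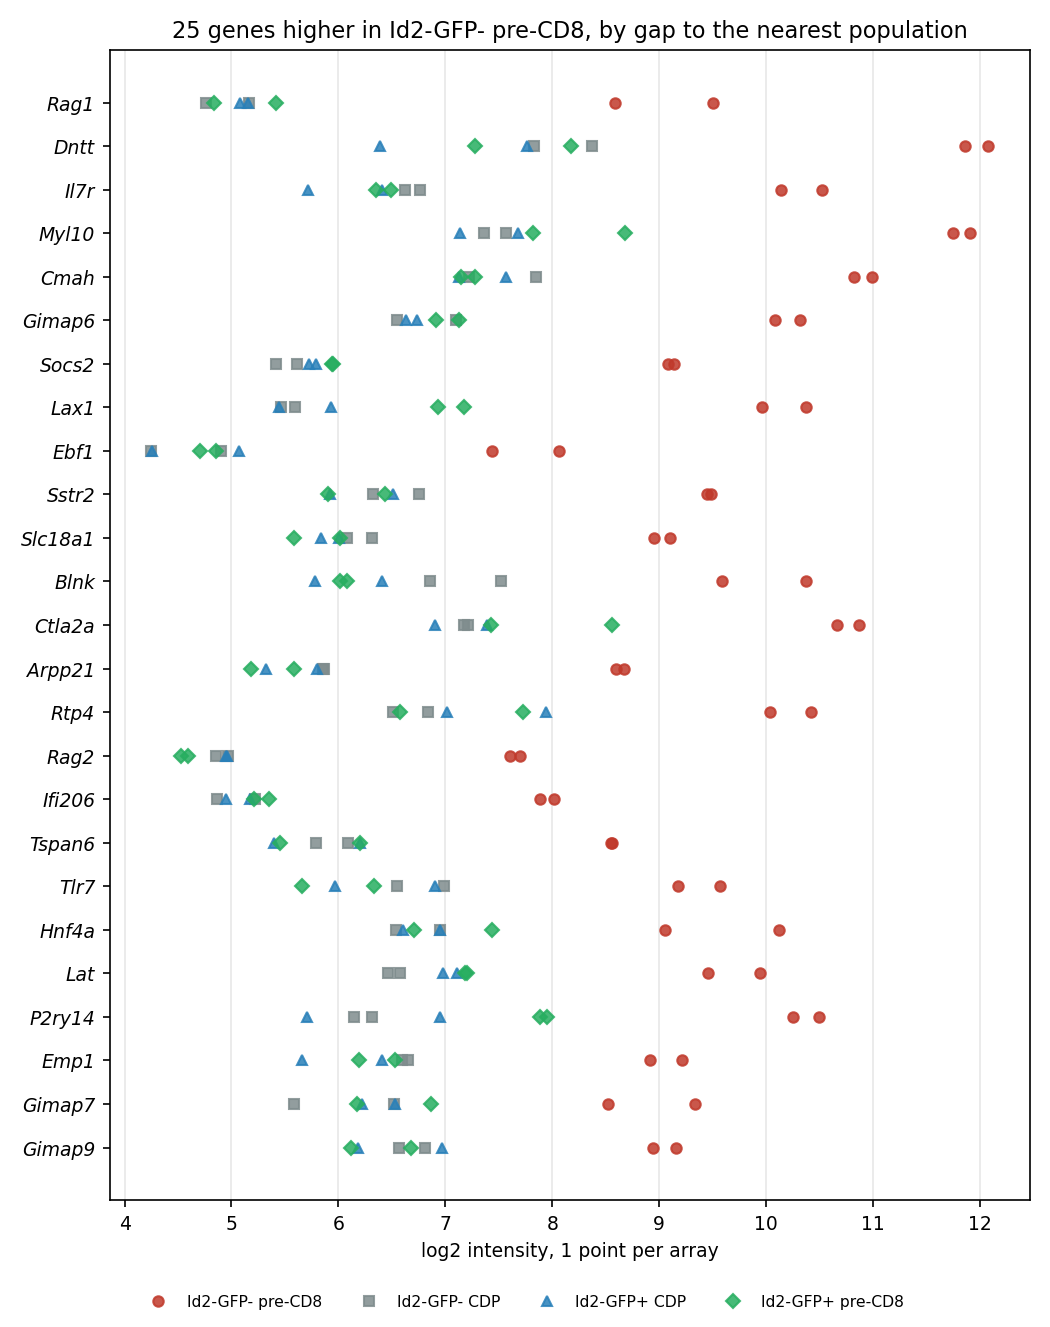
Each row is 1 of the 25 genes with the largest gap to the nearest population in the higher set, and each point is 1 array in log2 intensity. The red circles of Id2-GFP- pre-CD8 stand to the right of every other point in each row, as for Rag1 at 8.58 and 9.50 with the other arrays at 5.42 or less.

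Small lymphocyte GTPases of the Gimap family, known for roles in lymphocyte survival, rose nearly as a block. Of 8 measured, 6 lay above all 6 arrays and 7 were higher by limma, with a median difference of 2.39 (7 higher also with the set block). Cross-hybridisation between such similar, clustered genes is possible, so the single values are less certain. Gimap6 read 10.09 and 10.32, against 6.54 and 7.10 in Id2-GFP- CDP, 6.73 and 6.63 in Id2-GFP+ CDP, and 7.13 and 6.91 in Id2-GFP+ pre-CD8. The other 6 arrays spanned less than log2 1, and the difference was 3.36 ± 0.19 (SE; limma adjusted p = 0.000183). Gimap7 (8.52 and 9.33) and Gimap9 (9.15 and 8.94) had no other array above 6.87 and 6.97. Gimap5 rose by 2.63, with no other array above 5.88. Gimap1 and Gimap8 rose by 2.29 and 0.89, Gimap4 rose by 1.25 while overlapping other arrays, and Gimap3 differed by 0.01.

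Lymphocyte signalling adaptors and kinases showed a part of the same direction: 9 of 23 lay above all 6 arrays and 1 below, 8 were higher and 1 lower by limma, and the median difference was 0.24 (9 and 2 with the set block). Lat, the adaptor that links the T cell receptor to its downstream enzymes, read 9.46 and 9.95, against 6.46 and 6.58 in Id2-GFP- CDP, 7.11 and 6.98 in Id2-GFP+ CDP, and 7.21 and 7.18 in Id2-GFP+ pre-CD8. Sla2, an adaptor that dampens receptor signals, read 8.96 and 8.95 with the others between 6.18 and 6.90, and Prkcq, a protein kinase C of T cells, read 8.35 and 7.38 with the others between 5.39 and 6.19. Both were called by limma (adjusted p = 0.000452 and 0.00346). Zap70 and Plcg1 rose by 1.06 and 1.31, while Syk, Btk, Fyn and Lcp2, used across blood cells, had differences between -0.04 and 0.31 and did not pass. Themis2 fell by 0.92, a call that was lost without any of Id2-GFP- pre-CD8 replicate 1 or 2 or Id2-GFP- CDP replicate 2.

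Markers of T, NK and innate lymphoid cells were mixed. Of 20 measured, 3 lay above and 2 below all 6 arrays, beside 8.22% and 8.1% of all genes. By limma 2 were higher and 4 lower, and the median was -0.14. Its sign differed between the array sets, at -0.22 in the brighter and 0.13 in the dimmer. Blocking by set gave 5 higher and 6 lower, and the other 6 arrays as 1 group 2 and 1. The defining T cell chains Cd3d, Cd3e and Cd3g had differences of -0.27, -0.06 and -0.39, none of which passed. Cd247, a signalling chain of the T cell receptor, read 7.35 in Id2-GFP- pre-CD8 replicate 2 and less in replicate 1, with the other arrays between 6.12 and 6.55, but its call (limma adjusted p = 0.0183) was lost when either of those arrays was left out, with adjusted p up to 0.205. Klrk1, an activating NK receptor, went down to 4.87 and 5.61 from 6.61 and 7.10 in Id2-GFP- CDP, 7.88 and 7.23 in Id2-GFP+ CDP, and 8.30 and 8.48 in Id2-GFP+ pre-CD8. The list had 1 higher and 1 lower call when either Id2-GFP- pre-CD8 array was left out.

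The remaining genes with large gaps have varied roles. Myl10, a myosin light chain, read 11.90 and 11.75, against 7.56 and 7.36 in Id2-GFP- CDP, 7.13 and 7.68 in Id2-GFP+ CDP, and 7.82 and 8.68 in Id2-GFP+ pre-CD8. It had no other array within 3.07, with a difference of 4.12 ± 0.26 (SE; limma adjusted p = 0.000277). Socs2, an inhibitor of cytokine receptor signalling, read 9.08 and 9.14, with all 6 other arrays between 5.42 and 5.95, and had the smallest standard error among these (difference 3.37 ± 0.13 SE; limma adjusted p = 5.78e-05). Cmah, an enzyme of sialic acid metabolism, read 10.82 and 10.98 with the others between 7.13 and 7.85. P2ry14, a receptor for sugar nucleotides, read 10.50 and 10.25, 7.95 and 7.88 in Id2-GFP+ pre-CD8, and 5.71 to 6.95 in the CDP arrays. Receptors and transporters better known from nerve and gland were among them: Sstr2, a somatostatin receptor, read 9.48 and 9.45 with no other array above 6.75, and Slc18a1, a vesicular monoamine transporter, read 8.95 and 9.10 with none above 6.32. Hnf4a, a nuclear receptor of liver and gut, read 10.12 and 9.06 with none above 7.44. Ctla2a, Arpp21, Tspan6 and Emp1 completed the set, with gaps of 2.77, 2.77, 2.62 and 2.44 to the nearest population. The 25 higher genes with the largest gaps all kept their calls in the 8 fits that left out an array.

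Of 23 measured interferon-stimulated genes, which act against viruses, 13 lay above all 6 arrays and 1 below, 9 were higher and 1 lower by limma, and the median difference was 0.78 (0.60 within the brighter set and 0.92 within the dimmer). The set block gave 15 higher and 3 lower, and the other 6 arrays as 1 group 9 and 0. Rtp4, a chaperone of receptors induced by interferon, read 10.42 and 10.04, against 6.84 and 6.51 in Id2-GFP- CDP, 7.02 and 7.94 in Id2-GFP+ CDP, and 6.58 and 7.73 in Id2-GFP+ pre-CD8. Ddx58, the RNA sensor RIG-I, read 9.74 and 9.38 with the others between 5.93 and 7.83. Oasl2 read 9.90 and 9.76 with the others between 6.87 and 8.14. These 3 genes rose by 3.13, 2.71 and 2.27 against the mean of the others (limma adjusted p = 0.00179, 0.00248 and 0.00274). Ifit1 read 6.82 in replicate 2 of Id2-GFP- pre-CD8 and more in replicate 1, with no other array above 5.75, and its call was lost without Id2-GFP- pre-CD8 replicate 1 (adjusted p = 0.143). Mx1, Irf9, Stat2, Usp18, Trim30a and Zbp1 did not pass, with differences between -0.51 and 0.40, and Cmpk2 fell by 0.82. Without replicate 1 the higher calls numbered 4 and without replicate 2 they numbered 6, and the call of Cmpk2 was lost without either, or without any of 4 other arrays. Ifi206, an interferon-inducible gene of a family of DNA sensors, read 8.01 and 7.88 with no other array above 5.35.

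Guanylate-binding proteins, interferon-induced GTPases that attack intracellular microbes, had 4 of 8 measured members above all 6 arrays and 5 higher by limma, with a median difference of 1.75 (7 higher with the set block, 3 with the other 6 arrays as 1 group). Gbp4 read 9.62 and 10.51, 6.30 and 6.46 in Id2-GFP- CDP, 7.04 and 7.19 in Id2-GFP+ CDP, and 8.16 and 7.67 in Id2-GFP+ pre-CD8. It was the member with the widest gap to its nearest population, 2.15 (limma adjusted p = 0.00561). Gbp8 and Gbp11 rose by 2.41 and 1.95. Gbp7 read 10.33 and 9.78 and was nearest to Id2-GFP- CDP at 8.87 and 7.89. Without Id2-GFP- pre-CD8 replicate 2 fewer members were called, with Gbp11 and Gbp7 among those lost. Gbp7 also lost its call without replicate 1.

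Markers of plasmacytoid dendritic cells divided. Of 23 measured, 8 lay above all 6 arrays and 6 below, 7 were higher and 3 lower by limma, and the median was 0.50. The set block gave 11 higher and 8 lower, and the other 6 arrays as 1 group 5 and 2. Tlr7, the endosomal receptor for single-stranded RNA, read 9.57 and 9.17, against 6.98 and 6.55 in Id2-GFP- CDP, 5.97 and 6.90 in Id2-GFP+ CDP, and 5.66 and 6.33 in Id2-GFP+ pre-CD8. Ccr9, a homing receptor of pDC and lymphoid progenitors, read 8.15 and 8.71, 6.36 and 6.62 in Id2-GFP+ pre-CD8, and 4.54 to 5.42 in the CDP arrays. Both stood apart from every other array, with differences of 2.97 each. Mctp2 rose by 1.80, Ptprcap by 1.42 and Cox6a2 by 1.19. Cox6a2 lay above the other arrays by only 0.12, and its difference from Id2-GFP- CDP was 0.78 (limma adjusted p = 0.556). Ly6d, which marks lymphoid and pDC progenitors, read 8.36 and 10.25, and Id2-GFP+ pre-CD8 replicate 1 reached 8.17; its difference of 2.03 missed the threshold (limma adjusted p = 0.0512; 8.17e-05 with the set block). Siglech, a surface lectin that defines pDC, was at 8.53 and 10.44 in Id2-GFP- pre-CD8, overlapping the 8.20 and 9.50 of Id2-GFP- CDP, and between 7.81 and 8.13 in the Id2-GFP+ arrays. Tlr9, the receptor for unmethylated DNA, went the other way, at 7.79 and 8.16 with the other 6 arrays between 8.82 and 10.37 (limma adjusted p = 0.00463; 0.0553 without Id2-GFP- pre-CD8 replicate 1). Without replicate 2 the list had 4 higher calls, and without either Id2-GFP- pre-CD8 array 1 lower call.

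Tcf4, the E protein of pDC, read 10.77 and 10.77, with Id2-GFP- CDP at 10.36 and 10.47 and the Id2-GFP+ arrays between 9.71 and 10.12. It lay above all 6 arrays by 0.30, and its call (limma adjusted p = 0.0369) was lost in 6 of the 8 fits that left out an array, with adjusted p up to 0.259. Tcf3, the E protein of early B cells, had a difference of 0.07 and overlapped the others. Mxd4, an antagonist of Myc, read 9.38 and 9.32 with no other array above 8.58 (limma adjusted p = 0.00543; up to 0.0604 when 1 Id2-GFP- pre-CD8 array was left out). Of 8 helix-loop-helix genes, Tcf4 and Mxd4 were the 2 above all arrays and none lay below; Id1, Id3, Lyl1, Tal1 and Tcf12 had differences between -0.42 and 0.41. With the set block 4 were higher and 1 lower. The list's 2 calls fell to 1 with the other 6 arrays as 1 group, to 0 when either Id2-GFP- pre-CD8 array was left out, and to 1 without either array of Id2-GFP- CDP or of Id2-GFP+ pre-CD8.

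Of 23 measured genes of early haematopoietic progenitors, 13 lay above all 6 arrays and 1 below, 11 were higher and 1 lower by limma, and the median was 1.18. The set block gave 20 higher and 2 lower, and the other 6 arrays as 1 group gave 6 and 0. Mycn, a proto-oncogene of the Myc family, read 8.81 and 7.98, with 5.31 and 5.00 in Id2-GFP- CDP, 5.22 and 5.08 in Id2-GFP+ CDP, and 6.27 and 6.44 in Id2-GFP+ pre-CD8. It had the largest gap of the list, 2.04 (limma adjusted p = 0.00406). Gfi1b, a repressor of red cell and platelet precursors, read 8.72 and 9.48 with no other array above 7.74. Meis1, a partner of Hox proteins in stem cells, read 10.41 and 9.72 with none above 8.67, though its call was lost when either Id2-GFP- pre-CD8 array was left out (highest adjusted p = 0.182). Adgrg1, Hoxa9, Hlf, Egfl7, Erg and Sox4 rose by 2.38, 2.00, 1.96, 1.80, 1.70 and 1.20. Angpt1 read 9.81 and 8.61 with none above 7.67 and missed the threshold (limma adjusted p = 0.0588; 4.46e-06 with the set block). Kit, the stem cell factor receptor, was at 11.48 and 10.44 and overlapped the other arrays (9.73 to 11.68). Without replicate 1 the list had 4 higher calls and without replicate 2 it had 6; the lower call, Cd48, was also lost in both, and without replicate 2 of Id2-GFP- CDP or of Id2-GFP+ pre-CD8. Erythroid and megakaryocyte markers had 2 of 11 above and 0 below, beside 8.22% and 8.1% of all genes. None was called by limma in the fit to 8 arrays (3 higher with the set block, 2 after quantile normalisation). Basophil, mast cell and eosinophil markers had 0 of 14 beyond the others (2 higher and 4 lower with the set block).

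**Figure D3:**
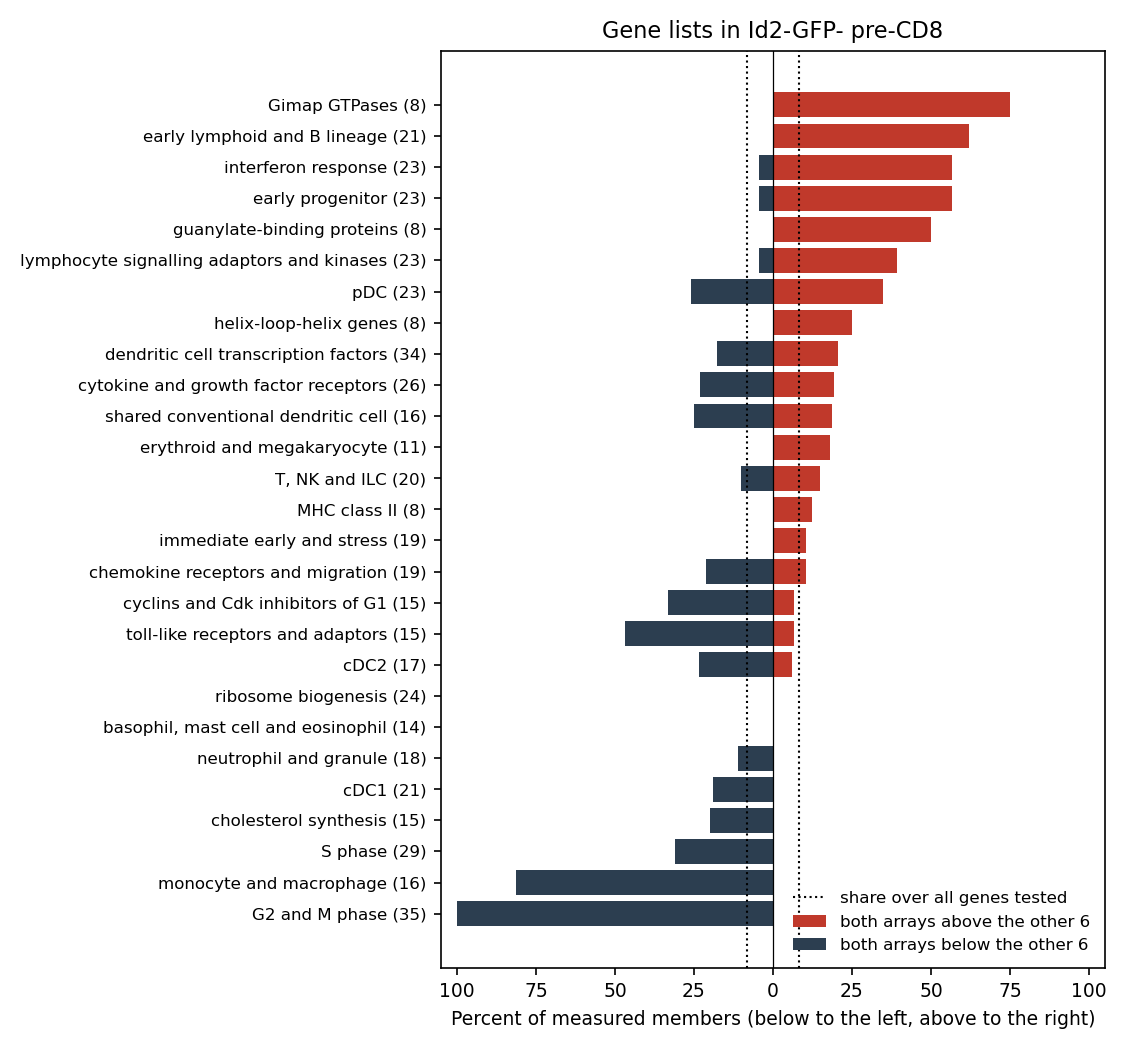
For each gene list, bars give the percent of measured members (number in parentheses) with both Id2-GFP- pre-CD8 arrays above (red, right) or below (dark, left) all 6 others; dotted lines mark the shares over all genes, 8.22% and 8.1%. The Gimap, early lymphoid, interferon and early progenitor lists extend furthest to the right, and the G2 and M phase and monocyte lists furthest to the left.

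Among the genes lower in Id2-GFP- pre-CD8, the widest gap belonged to Clec9a, a receptor for dead cells that marks cDC1 and their precursors. It read 5.47 and 6.28 in Id2-GFP- pre-CD8, against 8.92 and 9.65 in Id2-GFP- CDP, 9.01 and 9.52 in Id2-GFP+ CDP, and 9.78 and 10.55 in Id2-GFP+ pre-CD8. The other 3 populations were all high, and the difference was -3.69 ± 0.32 (SE; limma adjusted p = 0.000902). No cDC1 marker of 21 measured lay above all 6 arrays, 4 lay below, and 7 were lower by limma, with a median of -0.53. The set block gave 13 lower, but with the other 6 arrays as 1 group, whose spread then holds the differences between the 3 populations, 1 was lower; Rab7b, Naaa, Cd226 and Batf3 were among those that did not pass (limma adjusted p = 0.186, 0.241, 0.313 and 0.515). Naaa, a lipid hydrolase, was at 7.18 and 6.80 beside 7.62 and 7.64 in Id2-GFP- CDP, and at 10.01 and 10.34 in Id2-GFP+ CDP and 11.01 and 11.87 in Id2-GFP+ pre-CD8. Cd226, an adhesion receptor, was at 4.48 and 4.51 beside 4.68 and 5.01 in Id2-GFP- CDP, and at 7.99 to 9.74 on the Id2-GFP+ arrays. For these genes the large step was between the reporter states, and the gap to Id2-GFP- CDP was -0.64 for Naaa and -0.35 for Cd226 (limma adjusted p = 0.642 and 0.978). Batf3, a factor that cDC1 need, overlapped Id2-GFP- CDP at 6.89 and 7.24 against 6.94 and 7.01. Xcr1, the chemokine receptor that defines mature cDC1, read 5.20 and 4.82 with the others between 4.61 and 5.66. Set against the label pre-CD8, the mean log2 level over the cDC1 list in the Id2-GFP- cells was 6.58 and 6.53, beside 6.64 and 6.69 in Id2-GFP- CDP and 8.33 and 8.82 in Id2-GFP+ pre-CD8.

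**Figure D4:**
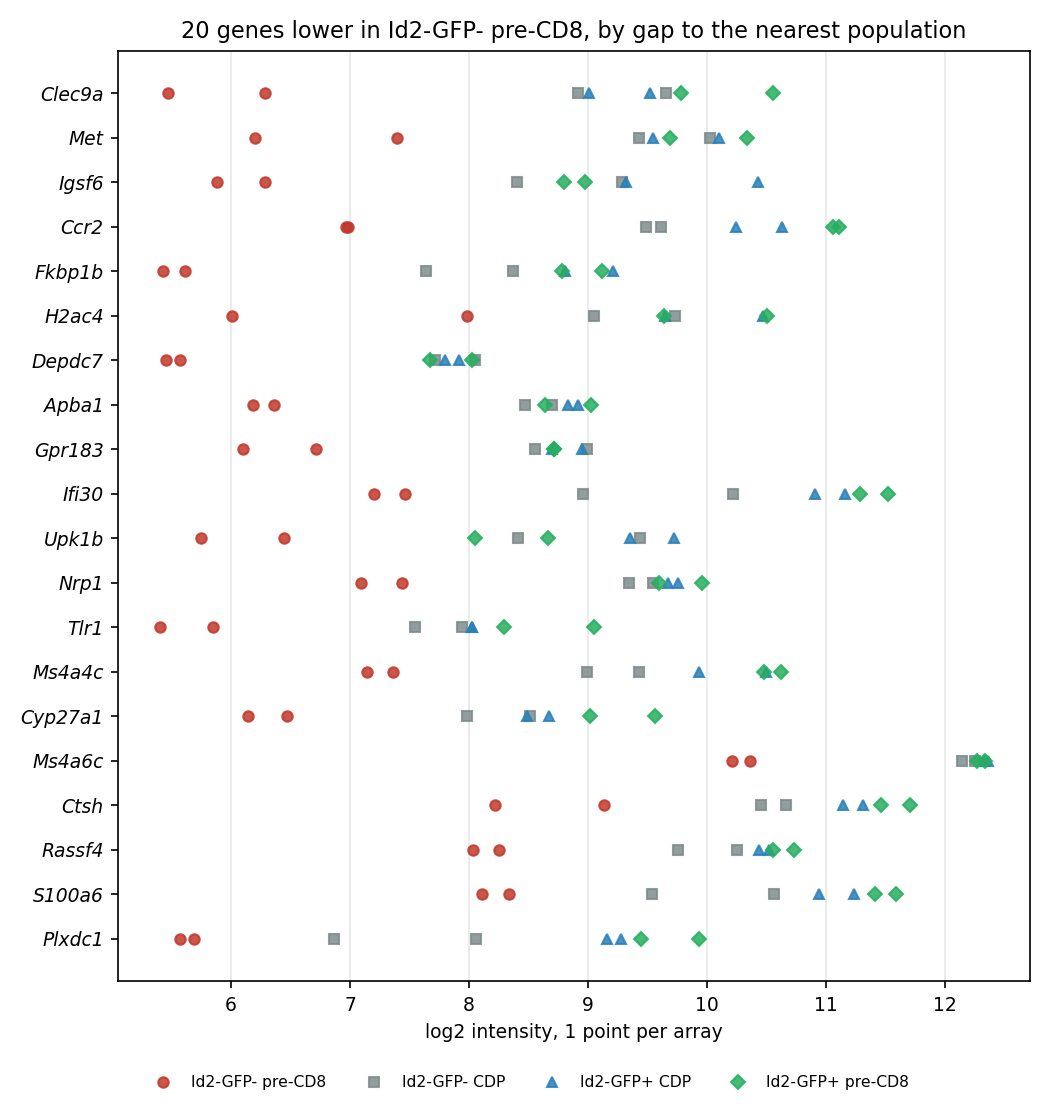
Each row is 1 of the 20 genes with the largest gap to the nearest population in the lower set, and each point is 1 array in log2 intensity. The red circles of Id2-GFP- pre-CD8 stand to the left of every other point in each row, from Clec9a at 5.47 and 6.28 to Plxdc1 at 5.69 and 5.57.

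Monocyte and macrophage markers were mostly lower: of 16 measured, 13 lay below all 6 arrays and 0 above, 12 were lower by limma, and the median was -0.90. With the set block 16 were lower, and with the other 6 arrays as 1 group 4 were. Ccr2, the receptor that brings monocytes out of the marrow, read 6.97 and 6.98, against 9.49 and 9.61 in Id2-GFP- CDP, 10.63 and 10.25 in Id2-GFP+ CDP, and 11.06 and 11.10 in Id2-GFP+ pre-CD8. This made a difference of -3.38 ± 0.16 (SE; limma adjusted p = 9.38e-05), and the gap to Id2-GFP- CDP was -2.58 (adjusted p = 0.00126). Ms4a4c read 7.14 and 7.36 with the others between 8.99 and 10.62, and Ms4a6c read 10.21 and 10.36 with the others between 12.14 and 12.36; both encode membrane proteins of myeloid cells. Cx3cr1, the fractalkine receptor, read 8.83 and 8.95, with 9.98 and 9.96 in Id2-GFP+ pre-CD8 and 10.57 to 10.87 in the CDP arrays. Csf1r, the receptor for the macrophage growth factor, was an exception, since at 9.30 and 8.90 it lay between the CDP arrays (10.14 to 11.10) and Id2-GFP+ pre-CD8 (8.09 and 7.93). The list's lower calls numbered 7 without Id2-GFP- pre-CD8 replicate 1, 6 without replicate 2, and 7 without Id2-GFP+ pre-CD8 replicate 2.

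Neutrophil granule genes moved differently. Of 18 measured, 13 were lower by limma but only 2 lay below all 6 arrays. The set block gave 17 lower, and 0 were lower with the other 6 arrays as 1 group. Their mean log2 level was 8.57 and 8.36 in Id2-GFP- pre-CD8, within the 8.84 and 7.97 of Id2-GFP- CDP, and 10.92 and 11.85 in Id2-GFP+ CDP and 10.11 and 10.54 in Id2-GFP+ pre-CD8. Mmp8, a collagenase of granules, was 1 of the 2, at 5.75 and 4.90 beside 7.39 and 6.33 in Id2-GFP- CDP; its call was lost without Id2-GFP- pre-CD8 replicate 2 (adjusted p = 0.052). Elane read 8.83 and 8.08 with the lowest other array at 8.93 and did not pass (limma adjusted p = 0.185; 0.00106 with the set block). The list had 8 lower calls without replicate 1 of Id2-GFP- pre-CD8 and 6 without replicate 2. The part of these myeloid genes in the other results was not tested.

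Other genes far below the rest had varied roles. Met, the receptor for hepatocyte growth factor, read 7.39 and 6.20, against 10.03 and 9.43 in Id2-GFP- CDP, 9.54 and 10.10 in Id2-GFP+ CDP, and 9.69 and 10.34 in Id2-GFP+ pre-CD8. Gpr183, an oxysterol receptor that guides dendritic cells and B cells, read 6.10 and 6.72 with the others between 8.56 and 8.99. Nrp1, a co-receptor for semaphorins and vascular growth factor, read 7.44 and 7.09 with the others between 9.35 and 9.95. In all 3 the other populations lay close to each other, and the gaps were -2.93, -2.31 and -2.18. Ifi30, a reductase that unfolds antigens in lysosomes, read 7.20 and 7.46, 8.96 and 10.22 in Id2-GFP- CDP, and 10.91 to 11.52 in the Id2-GFP+ arrays. Ctsh, a lysosomal protease, read 8.22 and 9.13, 10.46 and 10.66 in Id2-GFP- CDP, and 11.14 to 11.70 in the Id2-GFP+ arrays. For these lysosomal genes the Id2-GFP- CDP arrays lay between the rest. Igsf6, Fkbp1b, Depdc7, Apba1, Upk1b, Cyp27a1, Rassf4 and S100a6 had gaps between -2.76 and -1.83. Of the 45 genes with the largest gaps, only H2ac4, a histone gene with near-identical copies, and Plxdc1 missed the threshold against the nearest population alone (limma adjusted p = 0.133 and 0.0565), and only H2ac4 lost its call against the mean of the others when an array was left out (0.0826 without Id2-GFP- pre-CD8 replicate 2).

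Markers of cDC2 had 4 of 17 measured below all 6 arrays and 1 above, with 5 lower and 1 higher by limma. Lower and higher calls numbered 9 and 3 with the set block, while 1 was lower with the other 6 arrays as 1 group. Klf4, a factor of myeloid cells and of part of the cDC2, read 5.98 and 6.36 beside 6.98 and 8.46 in Id2-GFP- CDP and 8.95 to 9.58 in the Id2-GFP+ arrays. Cd209a, a lectin, read 5.60 and 5.96 beside 5.98 and 8.06, with 9.11 to 9.83 in the Id2-GFP+ arrays. The spread of the Id2-GFP- CDP pair was wide for both. Ltb, a cytokine of lymphoid tissue, was the member above, at 8.48 and 8.37 with no other array over 7.40. Without Id2-GFP- pre-CD8 replicate 1 the lower calls numbered 2, with Cd209a and S100a4 among the lost (adjusted p = 0.0714 and 0.0555).

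Of 16 genes shared by conventional dendritic cells, 3 lay above and 4 below all 6 arrays. Flt3, the receptor of the dendritic cell growth factor, read 12.58 and 12.23, against 11.71 and 11.44 in Id2-GFP- CDP, 10.73 and 11.34 in Id2-GFP+ CDP, and 11.05 and 11.53 in Id2-GFP+ pre-CD8. It lay above the others by 0.52, with a difference of 1.10 ± 0.21 (SE; limma adjusted p = 0.0189; up to 0.192 when 1 Id2-GFP- pre-CD8 array was left out). Jaml, an adhesion molecule, read 7.33 and 8.30 with the lowest other array at 8.56 (limma adjusted p = 0.0224; 0.222 without replicate 1). By limma 3 genes of the list were higher and 5 lower (4 and 7 with the set block, 1 lower with the other 6 arrays as 1 group), with 0 and 1 when Id2-GFP- pre-CD8 replicate 1 was left out and 1 and 3 without replicate 2.

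MHC class II genes, which present antigen to helper T cells, were intermediate. The mean log2 level over 8 measured genes was 9.10 and 9.24 in Id2-GFP- pre-CD8, against 7.69 and 7.74 in Id2-GFP- CDP, 9.85 and 10.17 in Id2-GFP+ CDP, and 11.38 and 11.92 in Id2-GFP+ pre-CD8. H2-Aa, H2-Ab1, H2-Eb1 and the transactivator Ciita were lower than the mean of the others by limma, but no member lay below all 6 arrays. The set block gave 7 lower and 1 higher, the other 6 arrays as 1 group gave 0 lower, and the lower calls numbered 0 without Id2-GFP- pre-CD8 replicate 1 and 1 without replicate 2. H2-Ob was the exception: this chain of H2-O, which restrains peptide loading in B cells and some dendritic cells, read 11.49 and 11.44, with 10.02 and 10.47 in Id2-GFP+ pre-CD8, against 9.16 and 9.16 in Id2-GFP+ CDP, and 8.81 and 8.78 in Id2-GFP- CDP. Its gap of 1.21 to Id2-GFP+ pre-CD8 passed the threshold (limma adjusted p = 0.0105).

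Toll-like receptors and adaptors had 7 of 15 measured below all 6 arrays and 1, Tlr7, above, with a median of -0.70. Tlr1, which pairs with Tlr2 to sense bacterial lipoproteins, read 5.40 and 5.84, against 7.55 and 7.94 in Id2-GFP- CDP, 8.02 and 8.03 in Id2-GFP+ CDP, and 8.29 and 9.05 in Id2-GFP+ pre-CD8. Unc93b1, the chaperone of the endosomal receptors Tlr7 and Tlr9, read 10.13 and 9.97 with the lowest other array at 10.50 and did not pass (limma adjusted p = 0.0891; 6.06e-05 with the set block). By limma 1 was higher and 6 lower (10 lower with the set block, 3 with the other 6 arrays as 1 group), with 1 lower without Id2-GFP- pre-CD8 replicate 1 and 3 without replicate 2.

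Of 26 cytokine and growth factor receptors, 5 lay above and 6 below, 3 were higher and 2 lower by limma, and the median was 0.01. The calls were 12 and 9 with the set block, 7 and 6 after quantile normalisation, 5 and 4 with dim genes left out, and 3 and 1 with the other 6 arrays as 1 group. Besides Il7r and Flt3, Il21r read 7.30 and 7.99 with no other array above 6.86 (limma adjusted p = 0.0116; 0.122 without Id2-GFP- pre-CD8 replicate 2). The 2 lower calls were Csf2ra and Il3ra, subunits of the receptors for GM-CSF and interleukin 3, with differences of -1.16 and -0.78; that of Il3ra was lost in 5 of 8 fits that left out an array (adjusted p up to 0.294). Without Id2-GFP- pre-CD8 replicate 2 the list had 1 higher and 0 lower calls, and it had 1 lower call without replicate 1, without an array of Id2-GFP- CDP, and without replicate 2 of Id2-GFP+ pre-CD8. Chemokine receptors and migration genes had 2 of 19 above and 4 below, beside 8.22% and 8.1% of all genes. By limma 3 were higher and 4 lower (5 and 8 with the set block). Ccr9 and S1pr1 were above, and Ccr2, Cx3cr1, Gpr183 and Itgb7 below. The higher calls fell to 1 when either array of Id2-GFP- pre-CD8, or replicate 2 of Id2-GFP+ pre-CD8, was left out.

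Of 34 transcription factors of dendritic cells, 7 lay above and 6 below, 4 were higher and 8 lower by limma, and the median was 0.10. There were 12 and 10 calls with the set block, 8 higher after quantile normalisation, and 2 and 4 with the other 6 arrays as 1 group. Irf8, which cDC1 need, read 11.46 and 12.10, against 12.39 and 12.77 in Id2-GFP- CDP, 12.71 and 12.62 in Id2-GFP+ CDP, and 12.83 and 13.01 in Id2-GFP+ pre-CD8. It lay below the other 6 arrays by 0.30, with a difference of -0.95 ± 0.18 (SE; limma adjusted p = 0.0191; 0.169 without Id2-GFP- pre-CD8 replicate 1). Spi1, the myeloid factor PU.1, read 9.61 and 9.25 with the lowest other array at 10.29 (limma adjusted p = 0.0118; 0.143 without replicate 2). Cebpd read 5.95 and 5.88 with the lowest other at 6.87, and Bcl6 and Mycl fell by 1.58 and 1.15. Bcl11a, a factor of lymphoid cells and pDC, read 11.20 and 11.18 with no other array above 10.66, and Ets1 read 7.68 and 7.48 with none above 7.14; both calls (limma adjusted p = 0.0141 and 0.0244) were lost when either Id2-GFP- pre-CD8 array was left out, with adjusted p up to 0.144 and 0.182; Ets1 also missed the threshold without replicate 1 of Id2-GFP+ pre-CD8. Satb1 and Foxp1 rose by 1.30 and 0.93. Nfil3 (9.59 and 10.80) and Zeb2 (9.25 and 8.84) overlapped the other arrays, which ran from 9.04 to 10.84 and from 6.45 to 10.20. The list's higher calls numbered 0 without replicate 1 of Id2-GFP- pre-CD8, 1 without its replicate 2, and 2 when replicate 1 of Id2-GFP+ pre-CD8 was left out; its lower calls numbered 4 and 5 in the first 2 of these fits.

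All 35 measured genes of the G2 and M phases of the cell cycle lay below all 6 other arrays, and 32 were lower by limma, with a median difference of -1.45 (-1.37 within the brighter set and -1.46 within the dimmer) and all 35 lower with the set block. Their mean log2 level was 8.94 and 8.55 in Id2-GFP- pre-CD8, against 9.96 and 9.79 in Id2-GFP- CDP, 10.05 and 10.42 in Id2-GFP+ CDP, and 9.99 and 10.46 in Id2-GFP+ pre-CD8. Prc1, which bundles microtubules at the midzone, read 6.54 and 6.62 with the others between 8.10 and 8.60 (limma adjusted p = 0.000973). Aurkb, a kinase that corrects chromosome attachment, read 10.35 and 9.58 with the others between 11.18 and 11.90 (limma adjusted p = 0.00766; 0.0753 without Id2-GFP- pre-CD8 replicate 2). Mki67, a marker of cycling cells, read 11.37 and 10.45 with the others between 11.75 and 12.67. Its call (limma adjusted p = 0.0379) was lost in 5 of the 8 fits that left out an array, with adjusted p up to 0.33. Without Id2-GFP- pre-CD8 replicate 2 all 35 genes stayed below the other 6 arrays while 11 passed the limma threshold, and without replicate 1 the numbers were 35 and 24.

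S phase genes were lower to a smaller degree. Of 29 measured, 9 lay below and 0 above, 4 were lower by limma, and the median was -0.41. With the set block 20 were lower and 1 higher, and after quantile normalisation 11 were lower. Rrm2, a subunit of ribonucleotide reductase, read 9.55 and 8.70 with the others between 10.35 and 10.84, and Ccne1, the cyclin of entry into S phase, read 8.05 and 7.36 with the others between 8.73 and 9.39 (limma adjusted p = 0.00996 and 0.00875; 0.095 and 0.105 without Id2-GFP- pre-CD8 replicate 2). The replication helicase genes Mcm2 to Mcm7 had differences between -0.24 and 0.34, none of which passed. Without Id2-GFP- pre-CD8 replicate 2, 0 of the 4 calls held, and 2 held without either Id2-GFP- CDP array, without replicate 2 of Id2-GFP+ CDP, and without replicate 2 of Id2-GFP+ pre-CD8.

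Among 15 cyclins and Cdk inhibitors of the G1 phase, 5 lay below and 1 above, and 4 were lower by limma (7 lower and 4 higher with the set block). Ccnd1, a cyclin that drives G1, read 9.22 and 8.58 with the others between 10.32 and 10.79. The inhibitor Cdkn2c read 6.81 and 6.68, against 8.01 and 8.41 in Id2-GFP- CDP and 8.86 to 9.17 in the Id2-GFP+ arrays, and the inhibitor Cdkn2d read 8.13 and 8.34, against 9.04 and 9.35 and then 10.02 to 10.50. A cyclin and 2 Cdk inhibitors were thus low together (limma adjusted p = 0.00289, 0.000939 and 0.00252). Genes of ribosome biogenesis had 0 of 24 beyond the other arrays and no limma call (15 higher with the set block, 4 after quantile normalisation), with a median of 0.32. Cholesterol synthesis genes had 3 of 15 below, of which Fdps passed (difference -1.28; limma adjusted p = 0.00224) and 4 were lower with the set block.

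**Figure D5:**
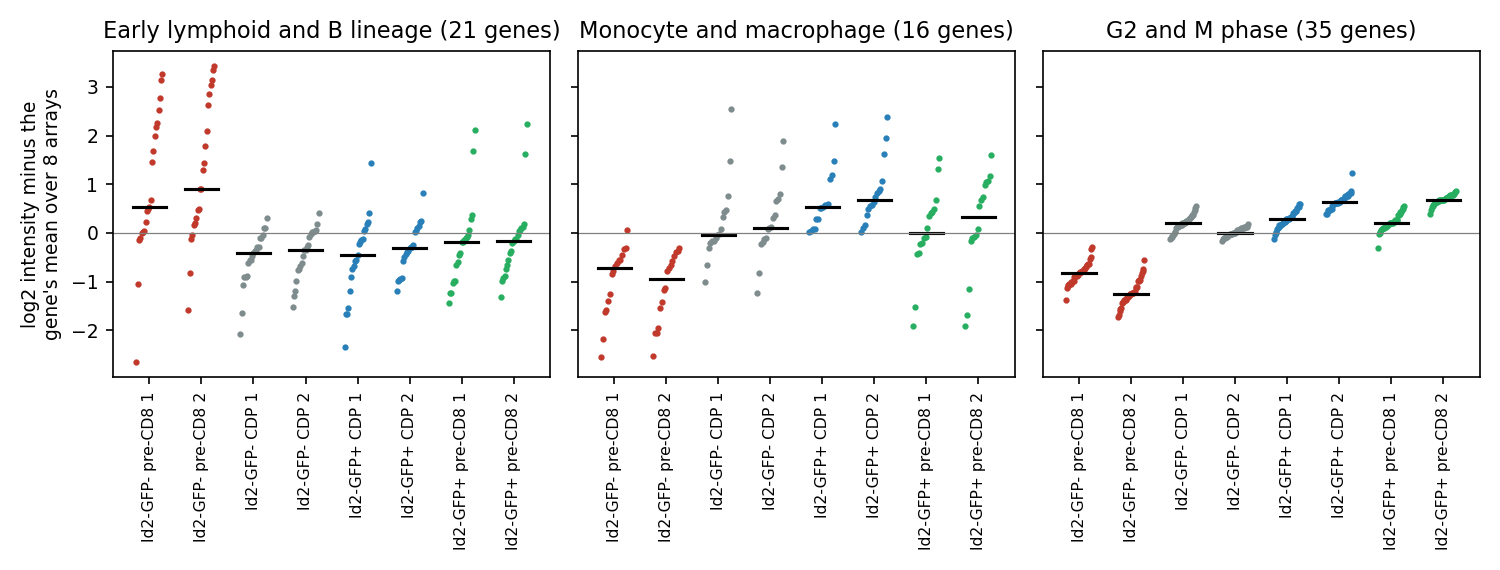
Each point is 1 gene on 1 array, as log2 intensity minus the gene's mean over the 8 arrays, for the early lymphoid (21 genes), monocyte (16) and G2 and M phase (35) lists; black lines are medians over genes. The Id2-GFP- pre-CD8 arrays (red) have the highest medians in the first panel and the lowest in the other panels.

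Immediate early and stress genes, which respond to cell handling, had 2 of 19 above and 0 below, beside 8.22% and 8.1% of all genes. Their median was -0.04 (3 higher and 4 lower with the set block). Jun, 1 of them, followed the array sets and not the populations: it was at 10.04 and 7.36 in Id2-GFP- pre-CD8, against 10.35 and 7.25 in Id2-GFP- CDP, 7.14 and 10.01 in Id2-GFP+ CDP, and 6.99 and 10.69 in Id2-GFP+ pre-CD8. The members above were Dusp2, a phosphatase, at 9.85 and 9.36 with no other array over 8.52, and Ier3, at 6.09 and 6.07 with none over 5.74 (limma adjusted p = 0.00559 and 0.0379). Dusp2 did not pass when Id2-GFP- pre-CD8 replicate 1 was left out (adjusted p = 0.0679), nor Ier3 in 6 of 8 fits that left out an array (up to 0.246). With Id2-GFP- pre-CD8 replicate 1 left out, 0 of the list was called, and 1 with replicate 2 or any of 4 other arrays left out.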

How the data were processed

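Total RNA of 8 sorted samples was hybridised to Affymetrix mouse gene arrays with a kit for very small inputs. The deposited intensity values are linear; RMA and Affymetrix Expression Console are the tools that the authors name in the submitters' processing notes, with versions not given in the sources used here. RMA corrects background and summarises probes, which compresses differences of dim genes. Here log2 was taken of the deposited table and no normalisation was added. The log2 interquartile range ran from 3.15 to 3.73 over the 8 arrays, so the values did not share a common distribution. Quantile normalisation changed the limma calls from 583 higher and 668 lower to 1202 and 1214. Of 28853 probe sets, 21789 carry 1 symbol in the array annotation; the probe set with the highest mean over 8 arrays stood for a gene, giving 19938 genes.

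The fit was limma 3.58.1 in R 4.3.3, with 4 group means, an intensity trend in the variance prior, no filter, two-sided tests and Benjamini-Hochberg adjustment over all genes. Precision is limited by the number of arrays. The fit was tested on simulated data with independent noise and no array sets. That test therefore does not cover arrays that deviate together. Python 3.11.15 was used for counts and figures. The named genes were Id2 and Zbtb46, the 25 higher and 20 lower genes with the largest gap (predicted genes, odorant and similar receptors, small RNAs and antigen receptor segments left out), up to 4 members per list with the largest gap, fixed regulators, and genes at the edge of the rank rule. Other list members are given with their difference only, as are Cd79a, Cd22, Xcr1 and Jun with all values, chosen after their values were seen. The comparison, gene lists and alternatives were chosen with earlier results of these data known. Alternatives covered normalisation, a filter on dim genes, the probe set used, blocks, the variance prior, the reference and leaving out each array. Samples with equal replicate numbers did not deviate together in 4 of 6 pairs of populations (r of -0.685 to -0.626), so the numbers do not pair the samples; arrays of the same set deviated together in all 6 (r of 0.626 to 0.713).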

Additional observations from a re-analysis of the deposited data

How the results depend on the processing

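The 45 genes with the largest gaps were picked from these data among genes past both criteria, so keeping their calls adds no independent evidence. All kept direction and call under quantile normalisation, the filter on dim genes (highest group mean at least log2 6) and the mean of all probe sets. They also did so with both blocks, no intensity trend, and the other 6 arrays as 1 group. Those last settings and the dim filter leave each difference unchanged, so direction could not change under them. H2ac4 is the exception among the fits that left out an array. No named gene past the threshold reversed under the settings that allowed it. Counts moved more. Quantile normalisation gave 1202 higher and 1214 lower by limma (1097 and 999 also beyond all 6 arrays, with 1070 of the 1124 genes shared), and the array set as a block 2472 and 2207 (1299 and 1268, with all 1124 shared). The replicate block gave 364 higher (360 with the rank rule), and the numbers do not pair the samples. The other 6 arrays as 1 group gave 370 lower. Leaving out 1 array gave 1705 to 4339 genes above and 1692 to 4366 below all others (a single array meets the rule more easily), 222 to 654 higher and 198 to 703 lower by limma, and 221 to 616 and 178 to 560 by both criteria; without Id2-GFP- CDP replicate 2 limma called 384 higher. The cause of these shifts was not tested. Rank counts have no separate value under alternatives that change only the model. At an unadjusted p under 0.05, 3126 genes differed. With 2 arrays a population, dim genes and small gaps are the least certain.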

Other observations

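Probe sets outside the gene comparison were counted by the same rank rule, which 8.22% of genes met above and 8.1% below. Of 5443 probe sets with no gene entry, 257 (4.72%) had both Id2-GFP- pre-CD8 arrays above all 6 others and 292 (5.36%) below, with a gap over log2 1 for 19 and 1. Of 1621 probe sets with several symbols, 183 (11.3%) lay above and 114 (7.03%) below, with such a gap for 9 and 3.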
